A study of Mus musculus with 12 samples.

Results

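The insulin-like growth factor (IGF) axis was followed through 10 genes in Rd76-9 mouse rhabdomyosarcoma tumors: the ligand gene *Igf1*, the receptor genes *Igf1r*, *Igf2r* and *Insr*, the adaptor genes *Irs1* and *Irs2*, and the binding protein genes *Igfbp3*, *Igfbp4*, *Igfbp5* and *Igfbp6*. The members were chosen by name, as parts of one axis, and not by a threshold on a value, though with earlier results of these data known. All 10 were found among the 38898 genes of the files, and all 10 passed the filter on low counts together with 17602 genes in all. RNA was sequenced from 12 tumors, each dissected from 1 wild-type C57/Bl6J mouse of 8 to 12 weeks at day 16 after tumor cell injection. Rd76-9 is a single cell line of methylcholanthrene-induced embryonal rhabdomyosarcoma from a female mouse, and it was injected under the skin of the flank. The 12 tumors fell into 4 groups of 3: vehicle (saline with empty nanoparticles; m1, m2 and m3), vincristine (VCR, 0.25 mg/kg once a week; m4, m5 and m6), RCM1-NPFA (the FOXM1 inhibitor RCM1 at 8 µg in folic acid nanoparticles every other day; m7, m8 and m9), and VCR + RCM1-NPFA (m10, m11 and m12). A treatment label of the vehicle-treated tumors also names RCM1, and they were taken as vehicle from their titles. The tumors are mixtures of injected cells and mouse host tissue, and in bulk RNA fewer cells of a type and less RNA per cell cannot be told apart.

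IGF1 and IGF2 are secreted growth factors that bind the tyrosine kinase receptor encoded by *Igf1r*, and IGF2 also binds the insulin receptor encoded by *Insr*. The activated receptors phosphorylate the adaptors IRS1 and IRS2, which recruit PI3-kinase and start AKT and mTOR signaling. *Igf2r* encodes a receptor without a kinase that carries IGF2 to the lysosome, and the IGF binding proteins hold the ligands outside the cell and set how much of them reaches a receptor. Embryonal rhabdomyosarcoma is known for active IGF2 signaling, and the same axis drives growth and differentiation of normal skeletal muscle.

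The binding proteins were by far the most abundant transcripts of the axis. Levels were compared between genes in TPM, a scale that divides by transcript length and by the total of the library. *Igfbp6*, which prefers IGF2 over IGF1, had a mean level of 585 ± 108 TPM (SD over 12 tumors) and ranged from 381 to 720 TPM. *Igfbp3*, the main carrier of IGFs in blood, had a level of 304 ± 44.5 TPM and ranged from 231 to 360 TPM. *Igfbp6* lay above *Igfbp3* in all 12 tumors, and these genes together made up between 92.7% and 95.7% of the summed TPM of the 4 binding proteins.

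The next levels were 41.2 ± 8.83 TPM for *Igfbp4*, 36.5 ± 3.47 TPM for *Irs2*, 13.6 ± 1.58 TPM for *Igf1r*, 11.8 ± 2.15 TPM for *Irs1* and 10.5 ± 3.72 TPM for *Igfbp5*. *Insr* had a level of 8.28 ± 1.39 TPM, *Igf2r* had 4.67 ± 0.851 TPM, and *Igf1* was the lowest with 2.37 ± 0.392 TPM. Some neighbors in this order did not differ beyond their spread. *Igfbp4* exceeded *Irs2* in 8 of 12 tumors and *Irs1* exceeded *Igfbp5* in 7 of 12. *Igf1r* exceeded *Irs1* in 11 of 12 tumors, while *Irs2* exceeded *Igf1r* and *Insr* exceeded *Igf2r* in every tumor.

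The other ligand gene *Igf2*, an imprinted gene expressed from the paternal allele, had a mean level of 8.39 TPM with a range from 3.54 TPM in m2 to 23.8 TPM in m8. It varied more than any of the 10 members, and it exceeded *Insr* in only 5 of 12 tumors. Against vehicle its log2 fold changes were -0.25 after VCR (SE 0.62), 0.58 after RCM1-NPFA (SE 0.62) and -0.31 after the combination (SE 0.62), and none was called. The insulin genes *Ins1* and *Ins2* had 0 CPM in every group.

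**Figure D1:**
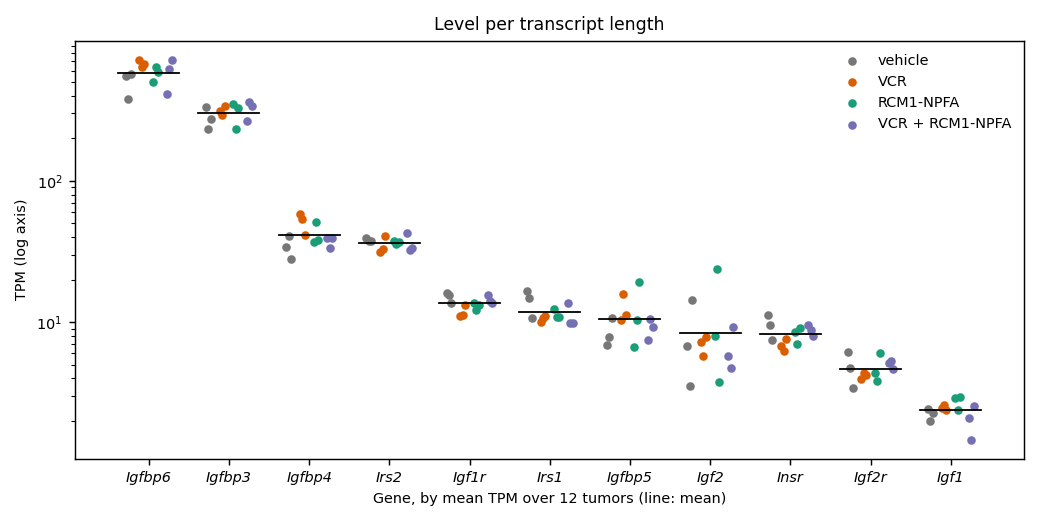
Level of the 10 genes and of *Igf2* in TPM on a log axis, with 1 point per tumor colored by treatment and a line at the mean over 12 tumors. *Igfbp6* (mean 585 TPM) and *Igfbp3* (304 TPM) sit far above the receptors, and *Igf1* (2.37 TPM) is the lowest.

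The members differed in how steady they were within a group. Variability was measured as the biological coefficient of variation of edgeR, the spread between tumors of a group beyond counting error. It was 7.96% for *Igf1r*, a value lower than that of all but 1.27% of the tested genes. The median over all tested genes was 15.8%, and the values were 10.6% for *Irs2*, 11.1% for *Insr*, 12.5% for *Irs1*, 16.0% for *Igfbp4* and 16.4% for *Igfbp3*. *Igfbp5* was the least steady member with 29.4%, and *Igf2* had 51.9%. A difference of a given size is thus better resolved for *Igf1r* than for *Igfbp5*.

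Each library held between 29342195 and 32108055 estimated reads. The summed level of 22 mature muscle fibre genes, which are markers of differentiated muscle, differed widely between tumors. It was 313 to 453 CPM (counts scaled by library size, not by length) in vehicle-treated tumors, 2281 to 14851 CPM after VCR, 418 to 22370 CPM after RCM1-NPFA and 841 to 5782 CPM after the combination. The highest sums were in m5 and m9. Among the vehicle-treated tumors, 14 myogenic regulator genes summed to 215 to 288 CPM with only *Mymk* at 0 in each of these tumors. Counts were scaled by the TMM method and tested with edgeR's quasi-likelihood test in 1 fit of 12 tumors, and genes with a Benjamini-Hochberg adjusted p under 0.1 were called. The p-value of this test sets a difference between groups against the spread between tumors within the groups. In counts simulated for the comparison of VCR with vehicle over 17602 genes, edgeR found 76% of the genes changed by 1 and 97% of those changed by 2 on the log2 scale, and 7.49% of its calls were false. DESeq2, which the paper used, found 87% and 99% of them, with 25.3% of its calls false. The counts were drawn a single time, with edgeR's own estimates of the spread and few changed genes, a setting that can favor edgeR. The percentages thus do not rank the tools for the tumors, and calls of DESeq2 are given beside those of edgeR. How often either tool finds changes smaller than 1 was not tested. The members called after VCR had smaller ones, at -0.30 (*Igf1r*), -0.38 (*Insr*) and 0.66 (*Igfbp4*). Whether these percentages hold for the calls in the tumors themselves was not tested.

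After VCR, both growth factor tyrosine kinase receptors fell and 1 binding protein rose. *Igf1r* was 18.7% lower, *Insr* was 23.4% lower and *Igfbp4* was 57.7% higher than in vehicle-treated tumors. These 3 of 10 members passed the threshold, against 5.55% of all tested genes in this comparison (2.8% higher and 2.75% lower). DESeq2 called 3 members and 14.1% of the genes it tested. The other 7 members did not pass it. An unadjusted p under 0.05 was found for 5 members and for 22.1% of tested genes. In CPM, the groups did not overlap for 4 members (*Igf1r*, *Insr*, *Igfbp4* and *Igfbp6*), against 24.4% of all tested genes. The median log2 fold change of the 10 members was 0.079, against 0.0016 for all tested genes.

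*Igf1r* (gene ID 16001, chr7:67952257-68233668 in GRCm38) had 109, 105 and 105 CPM in the vehicle-treated tumors and 81.3, 86.1 and 92.3 CPM in the VCR-treated tumors. Every VCR-treated tumor lay below every vehicle-treated tumor. The log2 fold change was -0.30 (SE 0.063, 95% interval -0.44 to -0.16), with an edgeR adjusted p of 0.0694.

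*Insr* (gene ID 16337, chr8:3150922-3279649) had 62.0, 52.3 and 46.0 CPM in the vehicle-treated tumors and 40.6, 39.2 and 43.0 CPM after VCR. In CPM the groups did not overlap, although the gap between the lowest vehicle-treated tumor and the highest VCR-treated tumor was small. In TPM they overlapped, with 7.53 TPM in m6 and 7.42 TPM in m3. Its log2 fold change was -0.38 (SE 0.11, 95% interval -0.62 to -0.14), with an edgeR adjusted p of 0.0967, close to the threshold.

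*Igfbp4* (gene ID 16010, chr11:99040005-99052655), whose protein mostly restrains IGF action until it is cleaved by the protease PAPP-A, had 40.3, 47.8 and 36.5 CPM in the vehicle-treated tumors. It had 74.4, 71.9 and 50.1 CPM after VCR, with m6 only just above the highest vehicle-treated tumor. The log2 fold change was 0.66 (SE 0.18, 95% interval 0.27 to 1.04), with an edgeR adjusted p of 0.087.

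The promoters of *Igf1r* and *Igfbp4* are shown because these genes moved in opposite directions. Each line gives the 250 bases before the start site from RefSeq (GRCm38.p6, plus strand), at chr7:67952007-67952256 for *Igf1r* and chr11:99040994-99041243 for *Igfbp4*. The *Igf1r* window ends just before the gene span given above. The *Igfbp4* window lies inside its span, before a start site within the gene. Capitals mark the GC box GGGCGG and the TATA box TATAAA, each searched on both strands as the letters shown or their reverse complement. The forkhead motif TAAACA was searched in the same way and is not found in either window.
Igf1r: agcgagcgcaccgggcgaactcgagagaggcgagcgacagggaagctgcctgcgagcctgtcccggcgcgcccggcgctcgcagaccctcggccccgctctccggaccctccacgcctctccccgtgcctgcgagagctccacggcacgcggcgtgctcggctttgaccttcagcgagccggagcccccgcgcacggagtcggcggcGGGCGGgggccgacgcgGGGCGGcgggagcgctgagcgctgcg
Igfbp4: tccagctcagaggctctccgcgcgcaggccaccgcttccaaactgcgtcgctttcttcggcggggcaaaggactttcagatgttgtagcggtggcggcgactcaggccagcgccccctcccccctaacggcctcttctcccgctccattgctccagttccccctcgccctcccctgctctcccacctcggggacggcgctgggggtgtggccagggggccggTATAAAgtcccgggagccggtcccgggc

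The *Igf1r* window held 2 GC box matches and no TATA box, and 77.6% of its bases were G or C. The *Igfbp4* window held no GC box match and 1 TATA box, with 69.2% G or C. RefSeq gave a promoter for 9 of the 10 members, all but *Insr*. Of these 9, a GC box was found in 4 (*Igf1r*, *Igf2r*, *Irs1* and *Irs2*) and a TATA box in 2 (*Igfbp4* and *Igfbp6*). Over all 32851 promoter windows of this length, 32.7% held a GC box, 12.4% held a TATA box and 12% held the forkhead motif, which none of the 9 windows had.

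Among the members that did not pass the threshold after VCR, the adaptor gene *Irs1* had 89.3, 79.9 and 64.5 CPM in vehicle-treated tumors and 59.0, 65.5 and 61.7 CPM after VCR. The groups overlapped by 1 tumor, and the log2 fold change was -0.33 (SE 0.13, edgeR adjusted p of 0.178). It was -0.22 without m1, -0.45 without m3 and -0.19 with a spline of transcript length taken out. Of the 12 fits that left out 1 tumor, *Irs1* passed the threshold in 1 (edgeR adjusted p of 0.0812). *Irs2*, the more abundant adaptor, differed little, with a log2 fold change of -0.06 (SE 0.099) and a 95% interval of -0.28 to 0.16. The lysosomal receptor gene *Igf2r* had a log2 fold change of -0.12 (SE 0.18), whose sign turned without m1 (0.080). Its position overlaps the antisense gene *Airn* on chromosome 17, which had between 2.32 and 3.39 CPM. In TPM, which divides by length, *Airn* had 7.11 to 13.3, above the 3.40 to 6.13 of *Igf2r*. Reads of this pair may not be told apart because the use of strand in counting is unclear.

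The remaining binding proteins had estimates above 0. *Igfbp6* had 373, 261 and 434 CPM in vehicle-treated tumors and 537, 500 and 475 CPM after VCR, so that the groups did not overlap. Its log2 fold change was 0.50 (SE 0.22, edgeR adjusted p of 0.208), and it was 0.30 without m2 and 0.29 with the spline. *Igfbp5*, a binding protein that is made by differentiating myoblasts, had 23.4, 26.9 and 40.6 CPM and then 38.6, 61.8 and 39.7 CPM after VCR. The groups overlapped, and the log2 fold change of 0.62 came with an SE of 0.34 and an edgeR adjusted p of 0.304. Without m5 it was 0.37. *Igfbp3* had a log2 fold change of 0.23 (SE 0.17) and the ligand *Igf1* 0.22 (SE 0.19), both with intervals that included 0. Without m2 these values were 0.071 and 0.10.

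**Figure D2:**
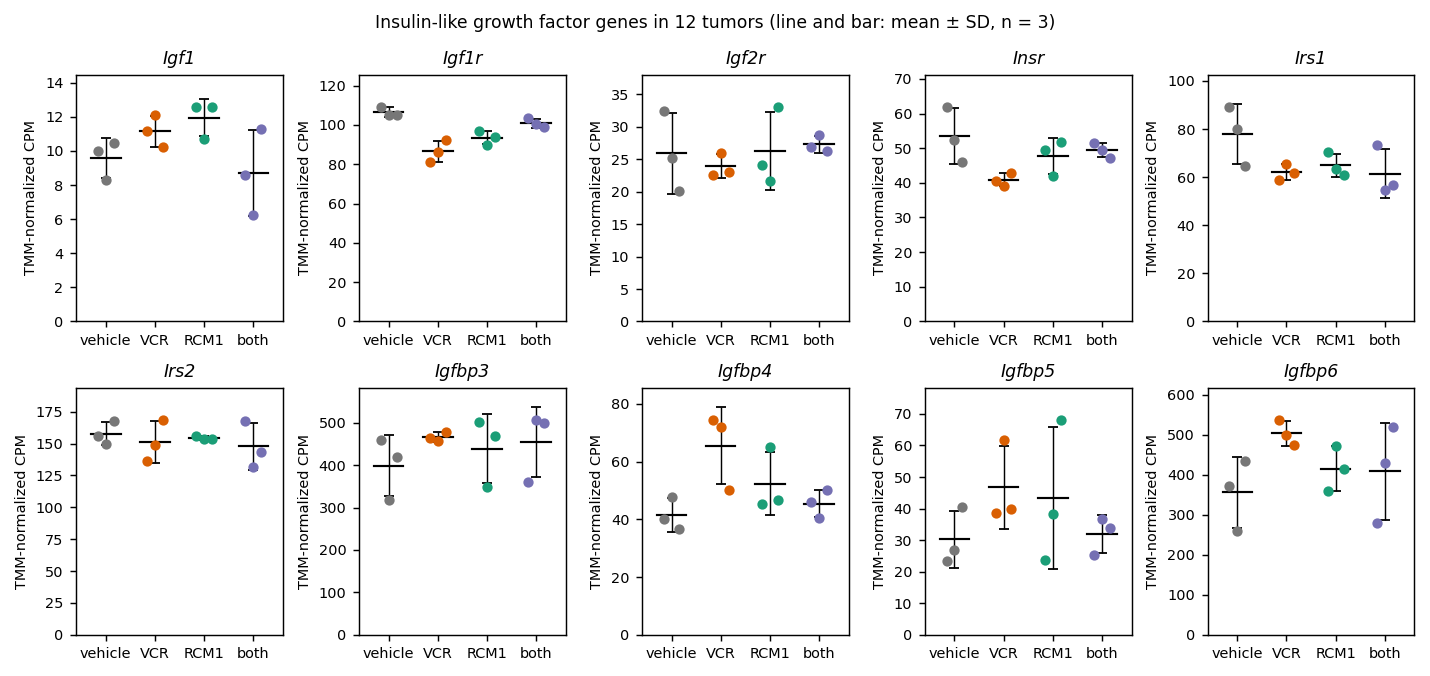
TMM-normalized CPM of the 10 genes by treatment, with 1 point per tumor and the mean ± SD of 3 tumors (RCM1, RCM1-NPFA; both, VCR + RCM1-NPFA). *Igf1r* is lowest after VCR (81.3 to 92.3 CPM) and *Igfbp4* highest (50.1 to 74.4 CPM), and most other genes overlap between groups.

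The direction of these differences ran with transcript length, in all genes and in the members. After VCR, the median log2 fold change was -0.22 for the 2025 tested genes with a mean effective length of 6000 bases or more, and 0.14 for the 4164 genes under 1500 bases. Of the long genes 10.2% were called lower and 0.543% higher, while of the short genes 0.576% were called lower and 5.28% higher. *Igf1r* (11312 bases), *Insr* (9192 bases), *Irs1* (8991 bases) and *Igf2r* (8776 bases) have long transcripts, and *Igfbp3* (2288 bases), *Igfbp4* (1957 bases) and *Igfbp6* (1133 bases) have short ones. Among the genes of 6000 bases or more, 35.5% had a lower estimate than *Igf1r* and 22.1% a lower one than *Insr*. The estimate of *Igfbp4* was higher than that of 93.0% of the 5917 genes between 1500 and 3000 bases. *Igfbp5* (5682 bases) and *Igf1* (6895 bases) are long members whose estimates were above 0. When a spline of transcript length was taken out of each tumor, the log2 fold changes were -0.17 for *Igf1r* (edgeR adjusted p of 0.284), -0.24 for *Insr* (0.122) and 0.52 for *Igfbp4* (0.158), and 97 genes in all were called in place of 977. The part of length in the 3 calls was not tested further.

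**Figure D3:**
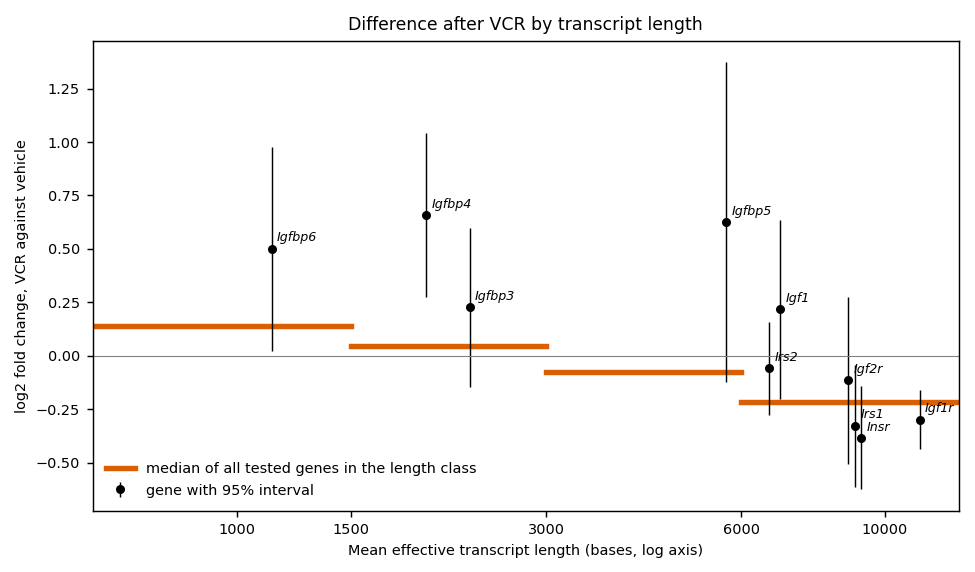
Log2 fold change between VCR-treated and vehicle-treated tumors against mean effective transcript length in bases on a log axis, with 95% intervals for the 10 genes and bars at the median of all tested genes in 4 length classes. The class medians go from 0.14 for the shortest to -0.22 for the longest genes, and *Igf1r* (-0.30) and *Insr* (-0.38) lie below the latter.

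The 3 calls also depended on single tumors, and so did the number of genes called in all, which was 977 with every tumor. That number was 281 without m1, 0 without m2, m4 or m5, and 1 without m11. It lay between 243 (without m12) and 2012 (without m6) in the other fits that left out 1 tumor. No member was called without m1, m2, m4, m5 or m11, and the edgeR adjusted p over all 12 fits that left out 1 tumor lay between 0.0352 and 0.281 for *Igf1r*, 0.0534 and 0.337 for *Insr*, and 0.0447 and 0.324 for *Igfbp4*. *Igfbp4* was also lost without m3, m10 or m12, and *Insr* without m7, m10 or m12. The direction held in each of these fits, with log2 fold changes from -0.37 to -0.25 for *Igf1r*, -0.48 to -0.26 for *Insr* and 0.56 to 0.79 for *Igfbp4*. Without m5 and m9, the tumors richest in muscle fibre RNA, the log2 fold changes were -0.30, -0.36 and 0.58, and none of the 3 was called. In this comparison with all 12 tumors, 10 of the 22 muscle fibre genes, 4 of 15 endothelial, 3 of 14 fibroblast and 2 of 9 pericyte and smooth muscle genes were called higher. Over all tested genes 2.8% were called higher. Among marker genes of other cells, 0 of 15 macrophage and 0 of 14 adipocyte genes were called. The endothelial genes summed to 254 to 356 CPM with vehicle and 361 to 478 CPM after VCR. None of the 22 muscle genes was at 0 in every tumor of a group. The part of these cells in the 3 calls was not tested. Transcripts of 4 Y-linked genes summed to more than 5 CPM in 1 of 3 vehicle-treated tumors and in 2 of 3 tumors of each treated group. The sum was above 1 CPM in 10 of 12 tumors, with 3 of 3 in the vehicle and combination groups and 2 of 3 in each single-drug group. With a term for tumors above 1 CPM, which thus rests on few tumors, 0 of all tested genes were called. The 3 members then had log2 fold changes of -0.31, -0.38 and 0.67. With a term for tumors above 5 CPM 376 genes were called, among them *Igf1r* (edgeR adjusted p of 0.0928), and the 3 members were at -0.29, -0.35 and 0.68. *Insr* alone was lost with limma-voom (adjusted p of 0.112), with edgeR without the count filter (0.108) and with length offsets (0.105).

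After RCM1-NPFA alone, edgeR called 0 of the 10 members, and the percentage of all tested genes called was 0. An unadjusted p under 0.05 was found for 1 member, *Igf1r*, and for 9.78% of tested genes, and DESeq2 called 0 members and 278 genes (1.5% of those it tested). *Igf1r* had 96.9, 90.01 and 93.7 CPM, all below the vehicle-treated tumors, with a log2 fold change of -0.19 (SE 0.063, edgeR adjusted p of 0.423), or -0.10 with the spline of transcript length. *Igf1* had 12.5, 10.7 and 12.6 CPM against 9.997, 8.26 and 10.5 CPM in vehicle-treated tumors. These were the 2 members whose groups did not overlap in CPM, against 11.4% of tested genes. The log2 fold change of *Igf1* was 0.32 (SE 0.19, edgeR adjusted p of 0.626).

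*Igfbp5* in this group ranged from 23.8 CPM in m7 to 68.1 CPM in m9, the tumor with the most muscle fibre RNA. Its log2 fold change was 0.52 (SE 0.34) with all tumors and 0.037 without m9. *Igfbp4* had 45.5, 64.9 and 46.8 CPM and a log2 fold change of 0.34 (SE 0.18), which fell to 0.15 without m8. *Insr* had 49.5, 41.9 and 51.7 CPM, with a log2 fold change of -0.16 (SE 0.11) that was -0.042 without m1 and -0.077 without m8.

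After VCR + RCM1-NPFA, edgeR again called 0 of the 10 members and 0 of all tested genes. The lowest unadjusted p was 0.0236 for *Irs1*, the only member under 0.05, against 7.31% of tested genes, and DESeq2 called 0 members and 60 genes (0.37% of those it tested). *Irs1* had 73.2, 54.5 and 56.8 CPM, with a log2 fold change of -0.34 (SE 0.13, edgeR adjusted p of 0.67). *Igf1r* had 103, 100 and 98.8 CPM, below the 3 vehicle-treated tumors, and was the only member without overlap in CPM, against 12.6% of tested genes. Its log2 fold change of -0.08 (SE 0.062) had a 95% interval of -0.21 to 0.06. *Insr* had 51.6, 49.5 and 47.3 CPM and *Igfbp4* 45.9, 40.5 and 50.03 CPM, with log2 fold changes of -0.11 (SE 0.11) and 0.13 (SE 0.18). That of *Insr* turned to 0.010 without m1, and that of *Igfbp4* lay between 0.047 and 0.23 on leaving out 1 tumor. For the 3 treated groups the vehicle-treated tumors are shared, so that these comparisons are not independent of each other.

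**Figure D4:**
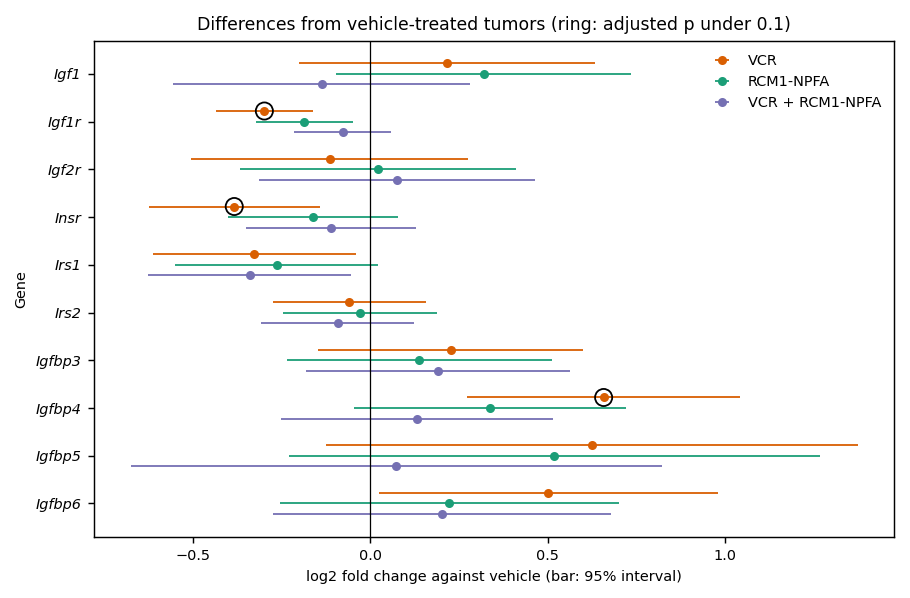
Log2 fold change of each gene against vehicle-treated tumors, with 95% intervals from the edgeR fit, after VCR, RCM1-NPFA or both. Rings mark the 3 values with an adjusted p under 0.1, *Igf1r* (-0.30), *Insr* (-0.38) and *Igfbp4* (0.66) after VCR.

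The combination was also set against each single drug. Compared with VCR alone, 0 of 10 members and 0% of tested genes were called. In CPM, 5 members did not overlap, against 12.9% of tested genes. *Igf1r* (log2 fold change 0.22, SE 0.063), *Insr* (0.27, SE 0.11) and *Igf2r* (0.19, SE 0.18) were higher in every tumor of the combination. *Igfbp4* (-0.53, SE 0.18) and *Igfbp5* (-0.55, SE 0.34) were lower in CPM in every tumor. Unadjusted p-values were under 0.05 for 3 members (*Igf1r*, *Insr* and *Igfbp4*), against 5.26% of tested genes, and DESeq2 called 0 genes. Compared with RCM1-NPFA alone, 0 members and 0 genes were called by either tool, and an unadjusted p under 0.05 was found for 1 member, *Igf1*, and 2.07% of tested genes. *Igf1r* was the only member without overlap in CPM in that comparison, at 0.11 on the log2 scale (SE 0.063), against 5.88% of tested genes.

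Whether the effect of VCR differed with RCM1-NPFA present was tested as an interaction of the drugs. For *Igf1r* the estimate was 0.41 (SE 0.088, 95% interval 0.21 to 0.60). In CPM, VCR-treated tumors all lay below vehicle, and tumors with both drugs all lay above those with RCM1-NPFA alone. In TPM the groups with both drugs and with RCM1-NPFA alone overlapped (m12 at 13.56, m7 at 13.63). Such a crossing in CPM, with no overlap in either direction, was found for 126 of 17602 genes (0.716%). The mirror crossing, of RCM1-NPFA without and with VCR, which *Igf1r* also showed, was found for 296 genes (1.68%). One or the other was found for 351 genes (1.99%). The edgeR unadjusted p was 0.00066 and the adjusted p was 0.293, so that it was not called. *Igfbp4* had an estimate of -0.86 (SE 0.25, edgeR adjusted p of 0.293), *Insr* had 0.44 (SE 0.16), *Igf1* had -0.67 (SE 0.27) and *Igfbp5* had -1.07 (SE 0.48). These 5 members had unadjusted p-values under 0.05, against 13.8% of tested genes, and edgeR called 0 members and 0 genes. DESeq2 called *Igf1r* (adjusted p of 0.013) and *Igfbp4* (adjusted p of 0.052), against 2.78% of the genes it tested. Without m5 and m9 DESeq2 called neither (adjusted p of 0.316 and 0.33). With the spline of transcript length the estimates were 0.21 for *Igf1r*, 0.24 for *Insr* and -0.74 for *Igfbp4*. That of *Igfbp5* was -0.59 without m9 and -0.33 without m5 and m9.

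The insulin receptor and *Igf1* each have an alternative exon whose use changes the protein, and the deposited transcript estimates separate the forms. The 36-base exon of *Insr* (chr8:3181702-3181737, minus strand, GRCm38) lies in the coding sequence. Its inclusion keeps the reading frame and gives the B form of the receptor, while the A form without it is known to bind IGF2 more tightly. The 52-base exon of *Igf1* (chr10:87915298-87915349, plus strand) lies in the part that encodes the E peptide of the precursor. Its length is not a multiple of 3, and its inclusion changes the reading frame of the end of the precursor. The sequences are given 5′ to 3′ from GENCODE transcripts with 24 bases of the neighboring exon on either side, and capitals mark the alternative exon.
Insr with the exon: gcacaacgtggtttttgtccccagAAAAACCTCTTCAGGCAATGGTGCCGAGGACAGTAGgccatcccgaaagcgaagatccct
Insr without the exon: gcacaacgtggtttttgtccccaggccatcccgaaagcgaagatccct
Igf1 with the exon: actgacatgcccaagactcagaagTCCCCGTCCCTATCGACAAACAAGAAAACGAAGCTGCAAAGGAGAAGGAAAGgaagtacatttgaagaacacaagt
Igf1 without the exon: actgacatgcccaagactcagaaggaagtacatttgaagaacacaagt

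The A form of *Insr*, without the exon, was the major form in every tumor. The estimated share of *Insr* TPM from transcripts with the exon was 25.7%, 8.87% and 37.5% in the vehicle-treated tumors. It was 16.3%, close to 0 (3.8e-05%) and 9.35% after VCR, 0.0086%, 0.016% and 3.97% after RCM1-NPFA, and 9.52%, 37.2% and 22.2% after the combination. The 3 tumors given RCM1-NPFA alone were the lowest but for m5, and they did not overlap with the vehicle-treated tumors or with those given both drugs. The grouping of transcripts by this exon was chosen after their values were seen, so these shares carry no test. The forms differ by 36 bases in a transcript of 9391, and the number of reads that tell them apart is not given, so that no interval can be set on a share.

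Tests were run on the single transcripts of *Igf1*, *Igf1r*, *Insr* and *Igfbp4* that held at least 5% of their gene's TPM on average. Of 33 exact permutation tests of 11 transcripts against vehicle, 9 reached the smallest p that 3 tumors against 3 allow, 0.1, and the lowest adjusted p was 0.367. These were 6 of 11 transcripts after VCR, 3 of 11 after RCM1-NPFA and 0 of 11 after the combination. Over the 25839 transcripts of all tested genes under the same limits, the groups did not overlap for 16.3%, 12.5% and 11%. The shares of a gene add up to its whole, so that its transcripts are not independent. In *Insr*, the main transcript without the exon held 58.7% ± 15.4 of the TPM in vehicle-treated tumors, 84.5% ± 8.34 after VCR and 88.7% ± 4.33 after RCM1-NPFA (SD over 3 tumors). The difference from vehicle was 25.9 percentage points after VCR and 30.0 after RCM1-NPFA, each with an exact permutation p of 0.1. For the other tested transcript without the exon the differences were -10.4 points after VCR and -7.33 after RCM1-NPFA (exact permutation p of 0.1 each). The rise of the main transcript was thus partly a shift between transcripts of the A form, and its size is not that of a change in exon use. The shares with the exon overlapped between vehicle and VCR. After the combination the main transcript held 62.5% ± 18.1, a difference of 3.81 points (exact permutation p of 0.8). In *Igf1r*, the transcript NM_010513.2 held 37.5% ± 8.32 in vehicle-treated tumors and 28.2% ± 1.56 after VCR (exact permutation p of 0.1).

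For *Igf1*, the share with the 52-base exon, over the RefSeq transcripts that could be assigned to a form, was between 21.7% and 56.4% in vehicle-treated tumors. It was 25.97% to 46.6% after VCR, 31.2% to 50.3% after RCM1-NPFA and 17.6% to 60.3% after the combination. All 4 groups overlapped, and the depth was low, with at most 400 estimated reads of *Igf1* in a tumor.

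**Figure D5:**
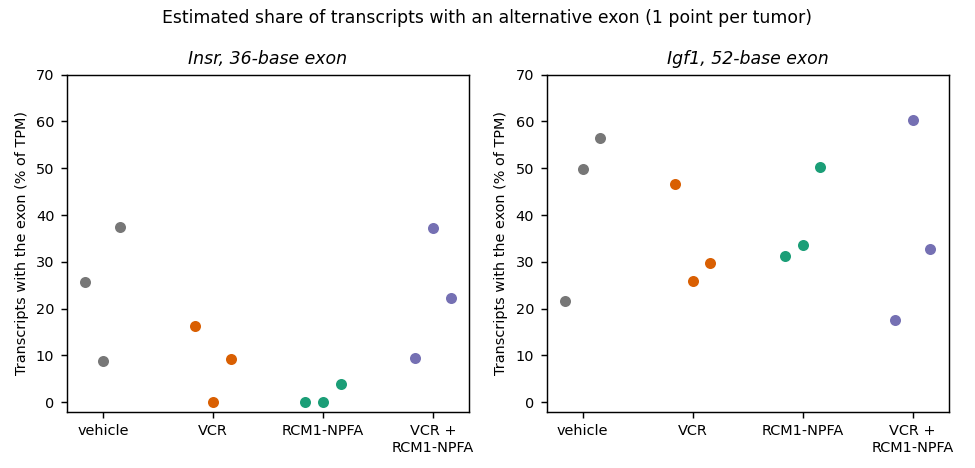
Estimated share of transcripts with the alternative exon, in percent of TPM, for *Insr* and *Igf1*, with 1 point per tumor in each treatment group. The 3 tumors given RCM1-NPFA have between 0.0086% and 3.97% in *Insr*, against 8.87% to 37.5% with vehicle, while the *Igf1* shares overlap in all groups.

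Ratios between members were compared within each tumor, which removes differences in scaling. The ratio of *Igf1r* to *Insr* TPM lay between 1.43 and 1.85 over the 12 tumors and the ratio of *Irs1* to *Irs2* between 0.27 and 0.42. The summed TPM of the 4 binding proteins was between 35.7 and 164 times that of the ligands *Igf1* and *Igf2* together. *Igf2* TPM was between 1.29 and 9.95 times that of *Igf1*. None of 15 tests of 5 ratios against vehicle separated the groups, where 3 tumors against 3 cannot give an exact permutation p below 0.1. Exact permutation tests of TPM itself reached 0.1 for *Igf1r*, *Igfbp4* and *Igfbp6* after VCR, for *Igf1r* and *Irs2* after RCM1-NPFA and for 0 members after the combination, and the adjusted p over 30 tests was 0.6. Reaching 0.1 here means only that the groups did not overlap. The share of all genes that did so in TPM was not computed. In CPM it was 24.4% after VCR, 11.4% after RCM1-NPFA and 12.6% after the combination. *Insr* after VCR, *Igf1* after RCM1-NPFA and *Igf1r* after the combination did not overlap with vehicle in CPM but did in TPM.

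The other genes of the axis were taken from lists of ligands and carriers, binding protein proteases and their inhibitors, receptor adaptors and inhibitors, the PI3-kinase, AKT and mTOR chain, and proteins that bind *Igf2* mRNA. Of 61 genes 53 could be tested. After VCR 2 were called higher and 6 lower, 15.1% of those tested, against 5.55% of all genes. Those called higher were *Igfbp7*, a low-affinity binding protein made by vessels and stroma (91.3 against 55.2 CPM, log2 fold change 0.72, SE 0.13), and *Adamts1*, an extracellular protease (0.36, SE 0.10). The 6 called lower were all of the PI3-kinase, AKT and mTOR list of 31 genes. The 3 with the smallest p among them were *Foxo3*, a transcription factor held inactive by AKT (73.7 against 94.8 CPM, log2 fold change -0.36, SE 0.083), *Tsc1*, a subunit of the complex that inhibits mTORC1 (-0.45, SE 0.11), and *Pik3ca*, the catalytic subunit of PI3-kinase (-0.33, SE 0.087). The lower genes thus included both activators and inhibitors of the chain. The median log2 fold change of that list was -0.08, against 0.0016 over all tested genes. With the spline of transcript length 0 of the 53 were called.

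After RCM1-NPFA and after the combination, 0 of the 53 genes were called. Of 16 target genes of FOXO transcription factors, which IGF signaling represses, 2 were called higher after VCR (against 2.8% of all tested genes), *Trib1* (log2 fold change 0.36, SE 0.11) and *Trim63*, a ubiquitin ligase of muscle (5.54, SE 1.62). *Trim63* had between 0.134 and 1.08 CPM in vehicle-treated tumors and between 10.8 and 33.0 CPM after VCR, in tumors that also held more muscle fibre RNA. An unadjusted p under 0.05 was found for 5 of the 16, against 22.1% of tested genes. The other 3, named after their values were seen, did not pass the threshold. *Pdk4* had a log2 fold change of 1.78 (SE 0.53, edgeR adjusted p of 0.103). *Bnip3* had 117 to 218 CPM with vehicle and 73.5 to 93.7 CPM after VCR, without overlap, at -0.94 (SE 0.28, edgeR adjusted p of 0.103), and *Cdkn1b* was at -0.24 (SE 0.096). The proteins that bind *Igf2* mRNA, *Igf2bp1*, *Igf2bp2* and *Igf2bp3*, were all expressed, and none was called.

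Over the 12 tumors, the 10 members were compared with the summed levels of 5 marker lists (muscle fibre, adipocyte, macrophage, fibroblast and endothelial), and 0 of 50 correlations passed the adjusted threshold. The highest was between *Igfbp6* and macrophage genes, with a Pearson r of 0.785 (permutation p of 0.0037, adjusted p of 0.184) and a Spearman rho of 0.608 (permutation p of 0.0388). Without m10 and m2 r was 0.29. After the group means were removed, r for this pair was 0.884 and the adjusted permutation p was 0.0105, and r without m10 and m2 was 0.713. *Igfbp5* had a Pearson r of 0.726 with muscle fibre genes (permutation p of 0.00735, adjusted p of 0.184) and a Spearman rho of 0.531 (permutation p of 0.0794). It rested on the tumors m5 and m9, without which r was 0.338.

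The genes whose levels most resembled each member were sought among 14036 genes over the 12 tumors, as a description. They were *Itprid2* (Pearson r of 0.946) and *Fam168a* (0.944) for *Igf1r*, *Nktr* (0.948) for *Insr*, *Atp8a1* (0.951) for *Igf2r*, and *Atrn* (0.915) for *Irs1*. For the binding proteins they were *Cyb561d1* (0.941) for *Igfbp3*, *Cenpw* (0.948) for *Igfbp4*, *Slc25a4*, which encodes a mitochondrial carrier of muscle and heart (0.970), for *Igfbp5*, and *Med16* (0.967) for *Igfbp6*. The highest values for *Igf1* (*Tctex1d4*, 0.857) and *Irs2* (*Zfp59*, 0.858) were lower.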

How the data were processed

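Poly-A RNA libraries of 12 tumors were sequenced by the authors, who assigned reads to transcripts of GRCm38 with kallisto (version not given in the sources used here). The deposited estimated counts are not whole and not normalized, since kallisto divides reads that transcripts share. The deposited TPM values are scaled by the authors with effective length. Their methods name a stranded kit and call the libraries non-stranded. All 120299 transcripts matched RefSeq genes, and estimated counts were summed per gene and rounded. Genes were filtered with filterByExpr (minimum count 10), scaled by TMM and tested with edgeR 4.0.16 (R 4.3.3) in 1 fit of 4 groups, with Benjamini-Hochberg adjustment and a threshold of 0.1. DESeq2 1.42.0 and limma-voom (limma 3.58.1) were alternatives, with simulated data used to test the scripts. Exact permutation tests were two-sided on log2(TPM + 0.1), and correlations used 100000 two-sided permutations (Python 3.11.15, numpy 2.4.6, scipy 1.17.1, pandas 2.3.3, matplotlib 3.10.9). Transcript shares used TPM. Promoters are from RefSeq and exons from GENCODE release M21.

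The members, gene lists and tests were chosen with earlier results of these data known. The text names the 10 members, *Igf2*, the antisense genes *Airn* and *Igf1os*, up to 3 called genes per list and direction, and the genes most like each member. *Igf1os* had under 0.1 CPM in every tumor. *Igf2bp1*, *Igf2bp2*, *Igf2bp3*, *Pdk4*, *Bnip3*, *Cdkn1b*, *Ins1* and *Ins2* were named after their values were seen. Each tumor is 1 mouse. The labels give no batch. Over all pairs of tumors, counts differed by more than sampling noise. Alternatives were other size factors, no count filter, other tests, only the groups compared, length offsets, a Y-linked term, fits without m5 and m9, leaving out each tumor, and a threshold of 0.05. The spline of transcript length, the Y-linked term above 5 CPM and DESeq2 without m5 and m9 were added after seeing the data.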

Additional observations from a re-analysis of the deposited data

Results flagged for a closer look

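The interaction of VCR and RCM1-NPFA on *Igf1r* was 0.41 on the log2 scale. In CPM, VCR went with a lower level in every tumor without RCM1-NPFA and a higher level in every tumor with it. In TPM the tumors with both drugs overlapped those with RCM1-NPFA alone. edgeR did not call the interaction (adjusted p of 0.293) and DESeq2 did (adjusted p of 0.013), but not without m5 and m9 (adjusted p of 0.316). With the spline of transcript length the estimate was 0.21 (edgeR adjusted p of 0.534). Of the tested genes, 0.716% showed a crossing of the same kind in CPM, and 1.99% showed it or its mirror.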

How the results depend on the processing

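The 3 calls of members after VCR became 0 at a threshold of 0.05, with only the groups compared, with the spline of transcript length, with the Y-linked term and without m5 and m9. The 977 genes called in all became 465 with only the groups compared, 97 with the spline, 0 with the Y-linked term and 253 without m5 and m9. The 3 member calls became 1 with the Y-linked term above 5 CPM, 1 by DESeq2 without m5 and m9, and 2 with limma-voom, with length offsets and without the count filter (*Insr* lost in each). Leaving out 1 tumor gave 0 to 3, and in 1 of these fits *Irs1* was among the members called. The 8 pathway genes called after VCR became 13 by DESeq2, 4 by limma-voom and with length offsets, 3 without the count filter, with the Y-linked term above 5 CPM and by DESeq2 without m5 and m9, 2 with only the groups compared and without m5 and m9, and 0 with the spline or the Y-linked term, with 0 to 10 on leaving out 1 tumor. The 2 FOXO targets became 4 by DESeq2, and 0 with other size factors, limma-voom, length offsets, the spline and either Y-linked term, with 0 to 6 on leaving out 1 tumor. After RCM1-NPFA, DESeq2 called 3 pathway genes and 1 FOXO target. After the combination without m5 and m9, DESeq2 called 1 pathway gene and 2 FOXO targets and edgeR called 1 FOXO target, with 0 to 1 on leaving out 1 tumor. DESeq2 called 2 members in the interaction, and 1 correlation was called after the group means were removed. The count of transcript shares without overlap lay between 9 and 16 and that of ratios between 0 and 5 on leaving out 1 tumor. The causes were not tested.

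Direction turned for small estimates. With the spline, log2 fold changes after VCR were 0.031 for *Igf2r* and 0.030 for *Irs2*, that of *Irs2* after RCM1-NPFA was 0.021, and the interaction of *Igf2r* was -0.017. *Igf2r* after RCM1-NPFA was -0.18 by both tools without m5 and m9, and *Igfbp5* after the combination was -0.039 with the Y-linked term above 5 CPM. The interaction of *Irs2* was 0.0063 with other size factors, 0.0075 without the count filter and 0.0027 by DESeq2. On leaving out 1 tumor, the log2 fold changes ranged after VCR from -0.27 to 0.080 for *Igf2r* and -0.17 to 0.011 for *Irs2*. After RCM1-NPFA they ranged from -0.18 to 0.22 for *Igf2r*, -0.071 to 0.016 for *Irs2* and -0.0072 to 0.28 for *Igfbp3*. After the combination they ranged from -0.37 to 0.054 for *Igf1*, -0.076 to 0.27 for *Igf2r*, -0.21 to 0.010 for *Insr*, -0.083 to 0.34 for *Igfbp5* and -0.0071 to 0.40 for *Igfbp6*. The interaction ranged from -0.024 to 0.37 for *Igf2r* and -0.088 to 0.10 for *Irs2*. No paired analysis was possible because the groups share no replicate numbers.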
